A study of Mus musculus with 12 samples.

Results

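The 80 genes described here encode, by name, the nuclear subunits of the oxidative phosphorylation machinery. They were the row names of the deposited tables that begin with NDUFA, NDUFB, NDUFC, NDUFS, NDUFV, UQCR, COX4 to COX8 or ATP5, with SDHA, SDHB, SDHC and SDHD, out of 11481 genes listed in either table. By complex they were 35 genes of complex I, 4 assembly factors of complex I (NDUFAF1 to NDUFAF4), 4 of complex II, 8 of complex III, 11 of complex IV and 15 of complex V. The name pattern also caught 3 genes that are not subunits (ATP5S, ATP5SL and COX4NB), and these were kept apart. The table of mock-treated cells held 79 of the genes and that of doxorubicin-treated cells all 80. The gene in the second table alone was COX6B2, known as the testis isoform of a complex IV subunit. Gene names are written in capitals as in the tables.

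Oxidative phosphorylation is the last stage of cellular respiration, carried out in the inner mitochondrial membrane. Complexes I and II pass electrons from NADH and succinate to ubiquinone, complex III passes them on to cytochrome c, and complex IV gives them to oxygen. Complexes I, III and IV pump protons in doing so, and complex V, the ATP synthase, uses the return flow of protons to make ATP. Most subunits are encoded in the nucleus and imported, and a small set is encoded in mitochondrial DNA, so both genomes must supply parts of complexes I, III, IV and V. The anthracycline doxorubicin breaks DNA, and fibroblasts answer such damage through p53.

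RNA was sequenced from primary cultures of mouse embryonic fibroblasts, all of hybrid 129/B6 strain background. They carried lincRNA-p21, a p53-induced noncoding RNA, intact (wild type or WT, lincRNA-p21+/+) or lacked it (knockout or KO). Both genotypes received a mock treatment or 24 hours of doxorubicin at 0.5 mM, the unit as the labels print it. This gave 4 groups of 3 libraries, numbered 1 to 3 and described as biological triplicates. Whether a number marks a shared litter or day is not given in the sources used here, nor is the number of animals behind a culture. The level of lincRNA-p21 itself was not analysed here, and no check of the genotype could be made from it.

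Values were CPM, the reads of a gene scaled to the total of its library. These totals, worked out from the smallest step between CPM values, ran from 14327048 to 20511907 reads. The listed genes made up 99.2 to 99.6% of them. Listing required over 2 CPM in each WT library, as the tables show, whereas a KO library lay at or under 2 CPM for 164 genes in mock and 313 after doxorubicin, 0 of them among the 80. Fibroblast markers were abundant, with 14 of 15 measured and a summed level in WT of 61561 to 73709 CPM before and 34648 to 43557 CPM after treatment. Of these 14, 6 fell in WT (COL1A1 by 1.16 on the log2 scale) and 5 in KO, beside 21.4% and 14.6% of all genes. Markers of other cell types were far lower. Over markers listed in both tables, the summed epithelial level in WT was 13.5 to 29.4 CPM in mock and 131 to 254 CPM after doxorubicin (KRT18 and KRT19, 2 of 10). The endothelial level was 3.70 to 4.47 and 29.6 to 30.8 CPM (KDR, 1 of 6), and the blood level 2.84 to 29.2 and 49.2 to 126 CPM (CD68, 1 of 8). In each of these 3 lists 1 more marker was listed after doxorubicin only. The neural level in WT, again over both tables, was 227 to 457 CPM in mock and 449 to 595 CPM after doxorubicin (TUBB3 and NES, 2 of 8). Skeletal and heart muscle markers went the other way, from 82.6 to 449 CPM to 47.2 to 214 CPM (DES, ACTA1 and TNNT2, 3 of 14). The adipocyte level was 26.3 to 66.8 and 98.5 to 168 CPM (FABP4, CEBPA and LPL, 3 of 8). The part of these other markers in the results was not tested. Of 4 p53 targets used to check the treatment, 3 rose in WT and 4 in KO, among them CDKN1A, which encodes the inhibitor p21, by 1.15 and 1.78. In mock CDKN1A lay lower in KO than in WT (log2 -0.85, limma, unadjusted p = 0.000334). It did not pass after adjustment (limma, adjusted p = 0.395), in a fit that called 0 of all 10648 genes. The difference between its rises did not pass either (log2 0.63, limma, adjusted p = 0.922, and 0.196 with the replicate number as a block).

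Promoters of this gene family are known for short recognition sequences of the nuclear respiratory factor NRF1, of ETS-family factors such as GABP and of YY1. Promoter windows of 300 bases (250 before and 50 after the start) came from RefSeq on build GRCm38.p6 and were found for 68 of the 80 genes, in 74 windows. The letters GCATGCGC, an NRF1 core, stood on either strand in 14.9% of these windows and in 2.71% of all 32851 windows. For CCGGAAG, an ETS core, the shares were 23.0% and 8.86%, and for AAGATGGC, a YY1 core, 16.2% and 2.75%. CCAAT, bound by NF-Y, was in 41.9% against 37.4%, and the E-box CACGTG in 12.2% against 7.15%. The 32851 windows were not limited to genes listed in these data, so the shares do not compare this family with other expressed genes. A match is a run of letters and was not shown to be bound here. The stretches shown now belong to genes with large changes after doxorubicin. In the first 3, which cover the 120 bases just before the start, the capitals mark the NRF1 core together with its overlapping reverse complement. In NDUFB6, with 250 bases, the capitals mark the ETS core, read on the other strand.
NDUFA11, chr17:56717642-56717761, plus strand: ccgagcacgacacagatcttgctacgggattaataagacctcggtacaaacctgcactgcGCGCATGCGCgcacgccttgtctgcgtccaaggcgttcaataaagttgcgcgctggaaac
NDUFAF4, chr4:24897963-24898082, plus strand: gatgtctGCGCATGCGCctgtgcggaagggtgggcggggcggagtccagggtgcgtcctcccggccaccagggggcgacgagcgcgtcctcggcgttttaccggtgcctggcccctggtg
ATP5G2, chr15:102671048-102671167, minus strand: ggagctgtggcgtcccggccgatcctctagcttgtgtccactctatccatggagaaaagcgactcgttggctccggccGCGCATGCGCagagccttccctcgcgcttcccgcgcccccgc
NDUFB6, chr4:40279422-40279671, minus strand: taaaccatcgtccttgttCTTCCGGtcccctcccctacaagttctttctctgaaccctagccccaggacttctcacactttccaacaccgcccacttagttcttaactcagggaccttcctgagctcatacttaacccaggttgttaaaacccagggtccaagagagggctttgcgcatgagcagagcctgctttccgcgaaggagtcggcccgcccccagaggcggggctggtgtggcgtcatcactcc
The same 10 letters began 60 bases before the start in NDUFA11, 113 in NDUFAF4 and 42 in ATP5G2. NDUFA11 rose after doxorubicin, and NDUFAF4 and ATP5G2 fell in WT, as given in the results on treatment. Among the oxidative phosphorylation genes measured in both tables, NDUFB6 rose most. In it the ETS core began 232 bases before the start and the NRF1 core was not in the window.

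In untreated WT cells the genes spanned a wide range of levels, highest for ATP synthase and cytochrome c oxidase and lowest for the assembly factors and the genes included by name only. Levels were compared between genes as mean CPM per kilobase of mRNA, with the length of the lower median coding transcript. ATP5B, the catalytic beta subunit of complex V, was highest at 612 ± 41.7 CPM per kb (SD, n = 3). It was followed by COX6B1 at 415 ± 12.0 and COX4I1 at 390 ± 27.1 CPM per kb, both nuclear subunits of complex IV. The intervals of 1 SD around COX6B1 and COX4I1 overlap, so their order is not resolved. By complex the median level per kb was 175 for complex IV, 159 for complex V, 122 for complex III, 78.4 for complex II, 63.9 for complex I, 8.54 for the assembly factors and 7.18 for the 3 genes included by name only. Among the assembly factors NDUFAF3 stood at 4.06 and NDUFAF4 at 5.86 CPM per kb. For 21 genes the longest annotated mRNA is more than 3/2 of the length used, which bears on their place in this order and not on any difference between groups.

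**Figure D1:**
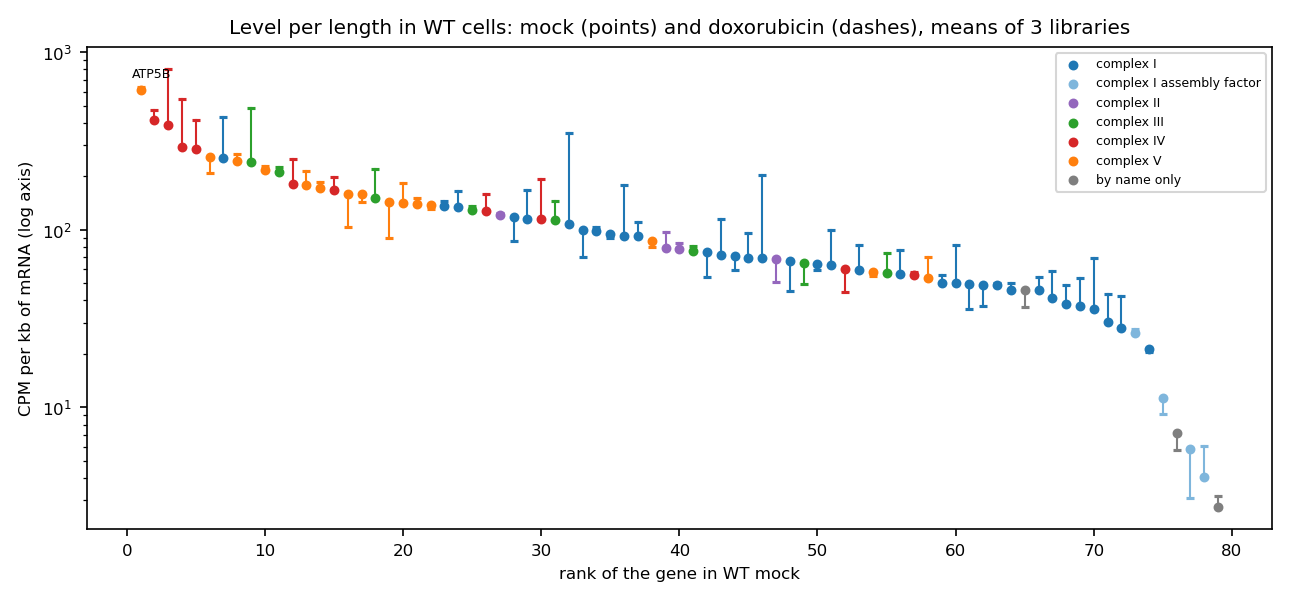
Level of 79 genes in WT cells in mean CPM per kilobase of mRNA (log axis), ranked by the mock level and coloured by complex, with points for mock, dashes for doxorubicin and a line joining each pair (3 libraries each). ATP5B led at 612 CPM per kb, complex I genes filled the middle of the order (median 63.9) and the lowest genes were assembly factors and genes included by name only.

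Doxorubicin raised many complex I, III and IV subunit RNAs in WT cells and lowered a smaller set. Of the 79 genes measured in both tables, 28 rose and 9 fell, beside 25.9% of all 10292 genes higher and 21.4% lower (limma on log2(CPM + 1), adjusted p under 0.05). The median log2 difference was 0.15 over the 79 genes and 0.01 over all genes, and 55 of the 79 lay above 0. Complex IV had 5 higher and 1 lower of 10 (median 0.38), complex I had 17 higher and 4 lower of 35 (median 0.30), and complex III had 4 higher and 0 lower of 8 (median 0.23). In complex V 2 rose and 2 fell of 15, and its median of 0.04 turned to -0.07 with median centring and -0.08 with quantile normalization. In complex II 0 rose and 1 fell of 4, and its median of 0.06 turned to -0.05 and -0.08 in the same order. CPM are shares of a library, and in bulk RNA fewer cells of a type and less RNA per cell cannot be told apart. With median centring, which moved the median of all genes from 0.01 to -0.10, 22 genes rose and 16 fell, beside 21.4% and 28.6% of all genes, and the median of the 79 was 0.03, so it stayed above that of all genes. With quantile normalization 24 rose and 16 fell, beside 22.4% and 26.9% of all genes. With the replicate number as a block 36 rose and 16 fell, beside 33.6% and 30.1% of all genes.

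**Figure D2:**
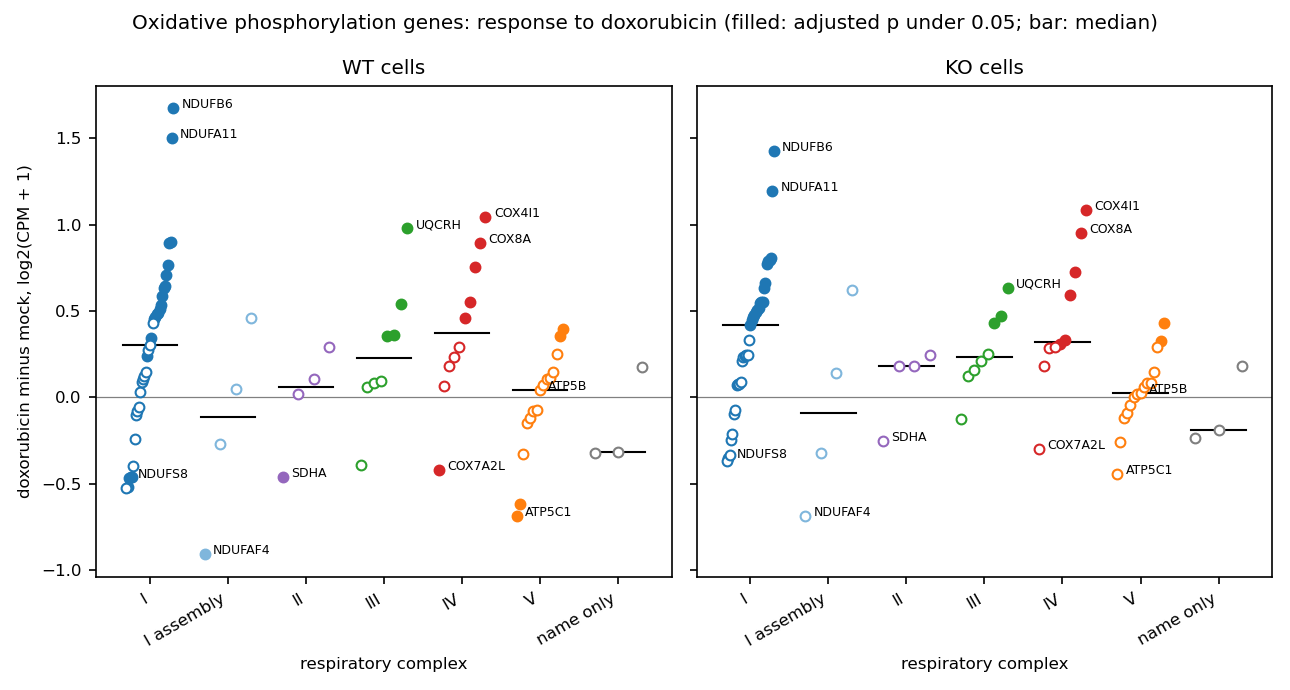
Doxorubicin minus mock on the log2(CPM + 1) scale for 79 genes by complex, in WT (left) and KO cells (right), with filled points for adjusted p under 0.05 and bars for the median of a complex. NDUFB6 and NDUFA11 of complex I and COX4I1 of complex IV are the highest points in both panels, complex V is centred near 0, and NDUFAF4 is the lowest point.

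Among the 79 genes measured in both tables, the largest rises were in accessory subunits of complex I, which surround its catalytic core. COX6B2, listed after doxorubicin only, had no mock value and was not compared. NDUFB6, in the membrane arm, stood at 51.9, 50.1 and 52.9 CPM in WT mock libraries 1, 2 and 3 and at 146, 158 and 202 CPM after doxorubicin. NDUFA11, also in the membrane arm, stood at 37.0, 39.2 and 36.7 CPM and then at 85.3, 103 and 145 CPM. In both genes every treated library lay far above every mock library, and library 3 was the highest after treatment. The log2 difference was 1.67 (SE 0.16, adjusted p = 2.89e-05) for NDUFB6 and 1.50 (SE 0.20, adjusted p = 0.000203) for NDUFA11. NDUFB2 went from 13.9, 17.5 and 17.2 CPM to 23.0, 32.3 and 39.7 CPM, a rise of 0.90 (SE 0.20, adjusted p = 0.0036). NDUFC2 went from 37.3, 44.1 and 49.2 CPM to 77.1, 61.1 and 114 CPM, a rise of 0.90 (SE 0.25, adjusted p = 0.0114). The groups did not overlap in NDUFB2 or NDUFC2, but the treated libraries of NDUFC2 were spread widely. NDUFA12 and NDUFB7 rose by 0.71 and 0.64. An exon of NDUFB6 overlaps the gene Smim27 on the opposite strand and one of NDUFB2 overlaps Braf. The strand setting of the counting is not given in the sources used here, so reads of such partners cannot be told apart.

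NDUFA4, grouped here by its name, is now known as a complex IV subunit. It rose from 120, 113 and 110 CPM to 180, 186 and 222 CPM, by 0.77 (SE 0.11, adjusted p = 0.000304).

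The core subunits of complex I, which hold its flavin, iron-sulfur clusters and quinone site, split between higher and lower. NDUFS1, an iron-sulfur subunit, rose from 100, 113 and 106 CPM to 130, 147 and 175 CPM (log2 0.49, adjusted p = 0.00602), and NDUFS3 rose by 0.34 (adjusted p = 0.0193). NDUFS8, an iron-sulfur subunit, fell from 49.8, 46.8 and 48.3 CPM to 40.2, 35.1 and 29.7 CPM (log2 -0.46, SE 0.12, adjusted p = 0.00978). NDUFV2, which carries an iron-sulfur cluster, fell from 72.5, 70.1 and 65.0 CPM to 49.4, 53.5 and 47.5 CPM (log2 -0.46, adjusted p = 0.0144). In these 4 genes the WT groups did not overlap. NDUFS7 and NDUFV1, at 0.03 and 0.15, did not pass. The call of NDUFS3 was lost without mock replicates 2 or 3 or doxorubicin replicates 1 or 3 (adjusted p = 0.0553 to 0.0757), with quantile normalization (0.0867) and with centring (0.0749). NDUFV2 had an adjusted p of 0.0505 without mock replicate 1.

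Complex III and IV genes that changed almost all rose. UQCRH, the hinge protein of complex III, went from 105, 99.7 and 86.0 CPM to 152, 225 and 206 CPM, a rise of 0.98 (SE 0.16, adjusted p = 0.000541). Of the other named complex III genes, UQCRC1, a core protein, rose by 0.35 (adjusted p = 0.0162) and UQCRFS1, the Rieske iron-sulfur protein, by 0.36 (adjusted p = 0.031), while UQCRC2 at 0.08 and UQCRB at -0.39 (adjusted p = 0.0587) did not pass. UQCRB passed with the replicate block (0.0059). The UQCRC1 call was lost without mock replicate 3 (0.066) or doxorubicin replicate 1 (0.0506) and with centring (0.0566). The UQCRFS1 call was lost with both scalings (0.0993 with centring and 0.146 with quantile normalization) and without mock replicates 1 or 3 or doxorubicin replicates 1 or 2 (0.0549 to 0.0957).

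COX4I1, the ubiquitous form of the largest nuclear subunit of complex IV, stood at 312, 271 and 289 CPM in WT mock and at 586, 579 and 635 CPM after doxorubicin. COX8A, the ubiquitous form of the smallest, stood at 166, 158 and 158 CPM and then at 312, 262 and 327 CPM. Neither gene had overlapping groups, and the treated libraries were close to each other. COX4I1 rose 2.06-fold (log2 1.05, SE 0.10, adjusted p = 2.62e-05) and COX8A by 0.90 (SE 0.11, adjusted p = 9.83e-05). COX5B rose by 0.75 (adjusted p = 0.000186), COX6A1 by 0.55 (adjusted p = 0.00102) and COX5A by 0.46 (adjusted p = 0.00796). COX6B1 at 0.18 and COX7A2 at 0.29 did not pass, and COX7A2 passed with the block (0.0407). COX7A2L, which is known to join complexes III and IV into supercomplexes, was the lone complex IV gene that fell. It went from 73.4, 61.0 and 60.1 CPM to 48.2, 49.1 and 47.0 CPM, with no overlap (log2 -0.42, adjusted p = 0.00913).

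Complex V was split, and its most abundant parts did not pass. ATP5B stood at 1124, 1265 and 1130 CPM in WT mock and 1128, 1435 and 1081 CPM after doxorubicin, with overlapping groups (log2 0.04, SE 0.17, adjusted p = 0.856). ATP5A1, the alpha subunit, was at 0.14 (adjusted p = 0.346). ATP5H and ATP5L, of the membrane and stalk part, rose by 0.36 and 0.40 (adjusted p = 0.00809 and 0.0108). ATP5C1, the gamma subunit that turns inside the catalytic head, fell from 164, 183 and 152 CPM to 113, 118 and 82.2 CPM (log2 -0.68, SE 0.18, adjusted p = 0.00892). The genes ATP5G1, ATP5G2 and ATP5G3 encode the same mature subunit c, the rotating ring. ATP5G2 fell from 75.5, 68.0 and 67.5 CPM to 52.9, 45.1 and 39.5 CPM (log2 -0.61, SE 0.16, adjusted p = 0.00943). ATP5G3 was at -0.33 (adjusted p = 0.107, and 0.0114 with the block) and ATP5G1 at -0.07 (0.623). Groups did not overlap in ATP5C1 or ATP5G2, and replicate 3 was the lowest treated library of both.

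In complex II, the flavoprotein gene SDHA stood at 206, 206 and 187 CPM in WT mock and 164, 167 and 111 CPM after doxorubicin (log2 -0.46, SE 0.17, adjusted p = 0.0463). SDHB, SDHC and SDHD, the iron-sulfur and membrane anchor subunits, were at 0.11, 0.02 and 0.29 and did not pass. NDUFAF4, a complex I assembly factor, went from 17.2, 25.5 and 21.2 CPM to 13.9, 12.7 and 6.96 CPM, the largest fall among the 79 genes (log2 -0.91, SE 0.26, adjusted p = 0.0151). The accessory complex I gene NDUFB8 went from 66.7, 68.4 and 69.4 CPM to 48.4, 53.3 and 40.8 CPM (log2 -0.52, adjusted p = 0.0207). None of these 3 genes had overlapping groups, and WT doxorubicin replicate 3 was the lowest library of each. Without that library 5 genes fell in place of 9, and SDHA, NDUFAF4 and NDUFB8 had adjusted p of 0.185, 0.0595 and 0.083. SDHA also failed without any mock library (0.066 to 0.11), NDUFAF4 without mock replicate 2 (0.0589) and NDUFB8 without mock replicates 2 or 3 (0.0517 and 0.0552).

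**Figure D3:**
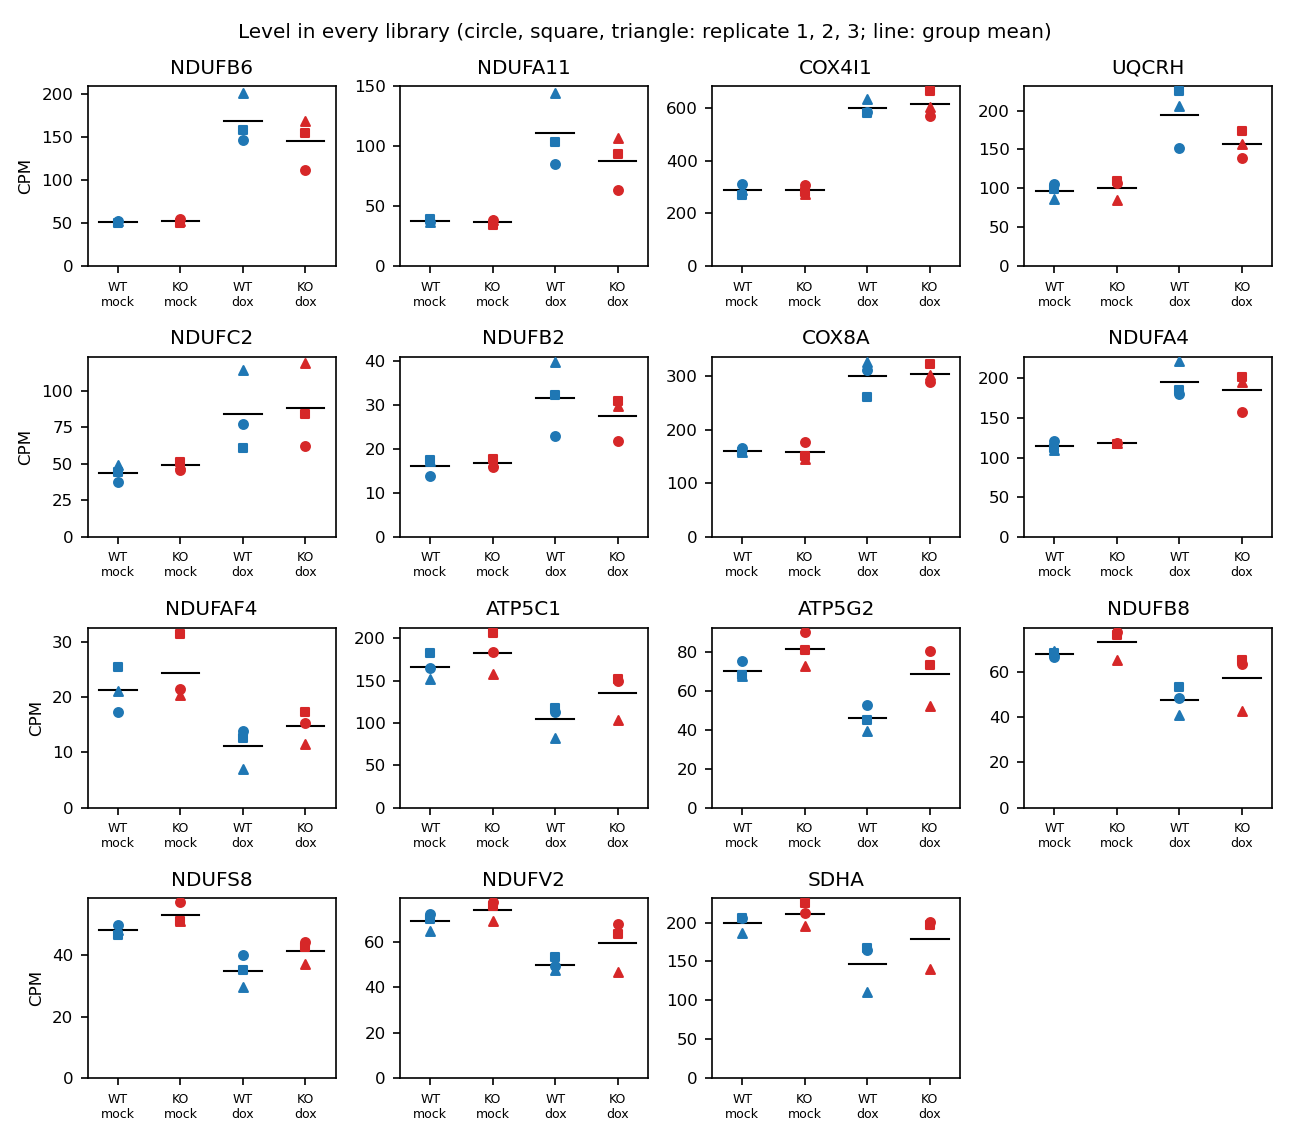
CPM of 15 genes in every library by group, with circles, squares and triangles for replicates 1, 2 and 3 and lines for the mean of 3 libraries (axes start at 0, and differ between genes). In the upper 8 genes every treated library lies above every mock library of its genotype, and in NDUFAF4, ATP5C1 and SDHA the triangle of replicate 3 is the lowest treated point in both genotypes.

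KO cells gave rises in much the same genes, and fewer falls passed. After doxorubicin 29 of the 79 genes rose and 1 fell in KO, beside 19.9% and 14.6% of all genes. The median log2 difference was 0.24 over the 79 genes and 0.04 over all genes. With median centring 24 rose and 6 fell, beside 16.2% and 19.7% of all genes (medians 0.15 and -0.05). With quantile normalization 25 rose and 6 fell, beside 17.8% and 18% of all genes, and with the block 40 rose and 8 fell, beside 29.6% and 24% of all genes. Higher in both genotypes were 24 genes, which is 85.7% of the WT list and 82.8% of the KO list. Another 4 passed in WT alone (ATP5L, NDUFA10, NDUFS1 and UQCRFS1) and 5 in KO alone (ATP5K, COX6C, NDUFA13, NDUFA7 and NDUFB9), which does not show that the genotypes differ. By complex, 18 rose and 1 fell in complex I (median 0.42), 6 of 10 rose in complex IV (median 0.32), 3 of 8 in complex III (median 0.23) and 2 of 15 in complex V, whose median of 0.02 turned to -0.06 with centring and -0.02 with quantile normalization. In complex II and the assembly factors 0 passed.

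NDUFB6 stood at 54.4, 50.5 and 52.7 CPM in KO mock and 111, 155 and 169 CPM in KO doxorubicin (log2 1.43, adjusted p = 0.00013). NDUFA11 stood at 38.5, 34.1 and 38.3 CPM and then at 63.5, 93.5 and 106 CPM (log2 1.20, adjusted p = 0.00139). COX4I1 went from 308, 281 and 275 CPM to 571, 664 and 605 CPM, a 2.12-fold rise (adjusted p = 3.69e-05). No group overlapped in these 3 genes, and replicate 1 was the lowest treated KO library of each. COX8A rose by 0.95, NDUFA13, an accessory complex I subunit, by 0.81 (adjusted p = 0.00516), NDUFC2 by 0.80 (0.0274), NDUFB7 by 0.79 and NDUFA12 by 0.77. COX5B rose by 0.73, NDUFA4 by 0.63, UQCRH by 0.64, NDUFS3 by 0.45, UQCRC1 by 0.43 and COX5A by 0.33 (0.0477). The COX5A call was lost with centring (0.122), quantile normalization (0.0928), and without mock replicates 1 or 3 or doxorubicin replicates 2 or 3 (0.0774 to 0.173). That of NDUFC2 was lost without any KO library but doxorubicin replicate 1 (0.0543 to 0.112).

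The gene that fell in KO was NDUFS8, from 57.2, 51.2 and 51.2 CPM to 44.5, 42.8 and 37.3 CPM (log2 -0.35, adjusted p = 0.0464). Its groups did not overlap, but the call was lost without any 1 of the 6 libraries (0.0514 to 0.158). The genes that fell in WT lay below 0 in KO as well. NDUFAF4 was at -0.69 (adjusted p = 0.064, and 0.00956 with the block), ATP5C1 at -0.45 (0.0754 and 0.00165), NDUFB8 at -0.37 (0.0978 and 0.0204), NDUFV2 at -0.33 (0.0719 and 0.0135) and COX7A2L at -0.30 (0.0544 and 0.0108). ATP5G2 was at -0.26 (0.246 and 0.0447) and SDHA at -0.25 (0.281 and 0.0562). Of these 7 genes, 6 passed in KO with the block, and SDHA did not.

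The test of the difference between the responses, the interaction of genotype and treatment, called 0 of the 79 genes, as it did 0% of all genes, with or without the block. At an unadjusted p under 0.05 it had 1 of the 79 and 468 of all genes without the block. The median interaction, KO response minus WT response, was 0.08 over the 79 genes and 0.0041 over all genes. NDUFAF1 was highest at 0.41, NDUFA13 was at 0.38 and ATP5G2 at 0.36, and NDUFAF2 at -0.37 and UQCRH at -0.34 were lowest. The smallest adjusted p was 0.922, and 0.212 with the block, so a response that differs between genotypes was not detected for any of them.

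In untreated cells no gene of the set was called between KO and WT. In mock, 0 of 79 genes passed, beside 0% of all 10648 genes, and 0 had an unadjusted p under 0.05, against 440 of all genes. The differences ran from -0.08 (COX6A1) to 0.20 (ATP5G2). The median was 0.06 over the 79 genes and 0.06 over all genes, and over the 79 it was -0.00065 with quantile normalization and -0.0013 with median centring, where 39 lay above 0 in place of 64. The groups did not overlap in 2 genes, beside 9.98% of all genes. NDUFS8 stood at 49.8, 46.8 and 48.3 CPM in WT and 57.2, 51.2 and 51.2 CPM in KO, and NDUFS4, an accessory complex I subunit, at 49.6, 44.1 and 49.3 CPM and 53.0, 51.7 and 55.8 CPM. With the block 0 of the 79 passed, beside 0.563% of all genes higher and 0.357% lower. With pair 3 left out 10 were higher and 0 lower, beside 15.5% and 7.42% of all genes. With pair 1 left out 0 passed, beside 0.0188% of all genes higher and 0.0188% lower, and with pair 2 left out 0 passed, beside 0%.

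After doxorubicin most of the 80 genes were somewhat higher in KO than in WT, and the calls depended on the block. Without it 0 passed, beside 0% of all 11125 genes, and 3 had an unadjusted p under 0.05, against 1246 of all genes. The median difference was 0.12 over the 80 genes and 0.03 over all genes, and 65 lay above 0 (60 with centring and 66 with quantile normalization). The median was 0.07 without KO doxorubicin replicate 2 and 0.18 without KO doxorubicin replicate 3. By same-numbered pair it was 0.11, 0.23 and 0.05, with all genes at 0.01, 0.05 and 0.04, so pair 2 stood highest. The groups did not overlap in 10 genes, all higher in KO, beside 16.3% of all genes in either direction: COX7A2L, NDUFB10, NDUFB9, NDUFB5, NDUFB4, ATP5E, NDUFAF1, ATP5J2, NDUFA7 and NDUFA3.

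With the block 9 genes were higher and 2 lower in KO, shares close to or under the 11.8% and 13.6% of all genes. The count higher was 1, 9 and 6 without pair 1, 2 and 3, beside 1.62%, 9.96% and 4.84% of all genes, and the count lower 0, 2 and 0, beside 4.6%, 13.3% and 9.19%. ATP5G2, of the subunit c ring, stood at 52.9, 45.1 and 39.5 CPM in WT and 80.4, 73.3 and 52.4 CPM in KO (log2 0.56, SE 0.20 without the block, adjusted p = 0.443, and 0.00869 with it). Its unpaired groups overlapped through replicate 3 of KO, while KO lay above WT in all 3 pairs. SDHC, a membrane anchor of complex II, was at 0.40 (0.443 and 0.0119). COX6B2 stood at 46.7, 26.2 and 42.4 CPM in WT and 61.9, 34.2 and 56.8 CPM in KO, higher in KO in each pair (log2 0.39, 0.542 and 0.0185). NDUFA13 was at 0.39 (0.443 and 0.0364), UQCRB at 0.37 (0.458 and 0.029), ATP5C1 at 0.37 (0.46 and 0.0129), ATP5G3 at 0.34 (0.458 and 0.0146) and SDHA at 0.28 (0.539 and 0.0257). Of these genes, ATP5G2, ATP5C1 and SDHA had fallen in WT under doxorubicin. Both genes lower in KO, NDUFA11 at -0.33 (0.545 and 0.0323) and UQCRH at -0.30 (0.472 and 0.0341), had risen in WT. These comparisons share the WT doxorubicin libraries, and in mock the 10 of these 11 genes that were listed lay between -0.03 and 0.20.

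**Figure D4:**
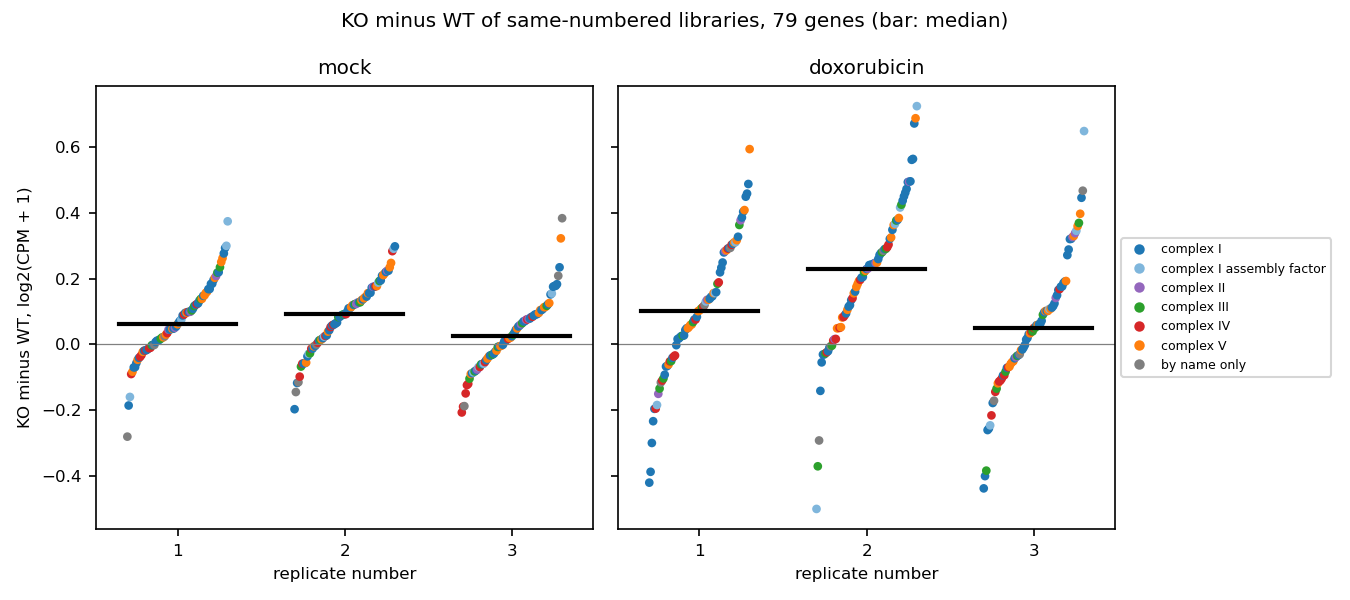
KO minus WT on the log2(CPM + 1) scale within each same-numbered pair of libraries, for 79 genes in mock (left) and doxorubicin (right), with bars for the median of a pair. The mock medians are 0.06, 0.09 and 0.02, and after doxorubicin the points spread more widely and pair 2 has the highest median.

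Summed over 79 genes, the nuclear oxidative phosphorylation RNAs made up 0.735 to 1.05% of the total to which the CPM of a library were scaled. The sums in mock were 7757, 7606 and 7360 CPM for WT and 8321, 8196 and 7353 CPM for KO. After doxorubicin they were 8890, 9192 and 8828 CPM for WT and 9387, 10458 and 8751 CPM for KO. Every treated library lay above every mock library, and the genotypes overlapped within each treatment. Complex IV sums carried much of the rise in WT, from 1201 to 1280 CPM in mock to 1821 to 1953 CPM after doxorubicin, and complex I went from 1836 to 2015 CPM to 2290 to 2588 CPM. Complex V stayed within 2955 to 3195 CPM in mock and 2847 to 3414 CPM after doxorubicin, with overlapping groups.

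Subunits encoded in mitochondrial DNA were listed for 11 genes, and their summed level exceeded that of the nuclear genes in every library. In mock it was 24237, 22323 and 27552 CPM for WT and 25898, 17697 and 27534 CPM for KO. After doxorubicin it was 32576, 27790 and 34924 CPM for WT and 33203, 22617 and 37199 CPM for KO. Replicate 2 was the lowest and replicate 3 the highest in all 4 groups, and the genotypes overlapped within each treatment. In WT 0 of the 11 passed (median 0.19, 10 above 0), beside 25.9% of all genes higher and 21.4% lower. With the block 5 rose and 1 fell, beside 33.6% and 30.1% of all genes. In KO MT-ATP6, a complex V subunit, rose by 0.35 (adjusted p = 0.0222), beside 19.9% of all genes higher. With the block 7 rose in KO, beside 29.6% of all genes. MT-CO1, the catalytic subunit of complex IV, was at 0.67 in WT (adjusted p = 0.0558, and 0.00186 with the block) and 0.58 in KO. With quantile normalization 3 rose in WT and 4 in KO, beside 22.4% and 17.8% of all genes. With centring 0 rose in either, beside 21.4% and 16.2% of all genes. In KO replicate 2, where the mitochondria-encoded sum was lowest after treatment, the nuclear sum was highest.

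**Figure D5:**
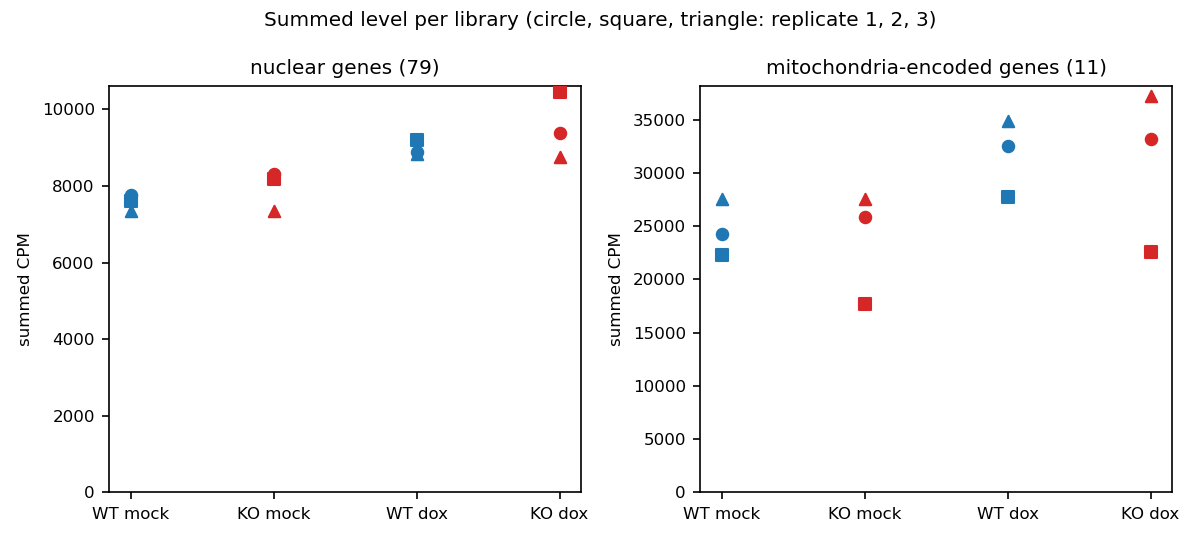
Summed CPM per library of 79 nuclear (left) and 11 mitochondria-encoded genes (right) by group, with circles, squares and triangles for replicates 1, 2 and 3. The nuclear sums of treated libraries (8751 to 10458 CPM) lie above all mock sums, whereas the mitochondria-encoded sums of KO replicate 2 (squares, 17697 and 22617 CPM) lie below those of the other libraries of their treatment.

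Other nuclear genes of the pathway outside the name rule, 24 of them measured, gave 4 rises and 1 fall in WT and 4 rises and 0 falls in KO, beside 25.9% and 21.4% of all genes in WT and 19.9% and 14.6% in KO. CYCS, which encodes cytochrome c, the carrier between complexes III and IV, rose by 1.08 in WT (SE 0.21, adjusted p = 0.00155) and 0.70 in KO (0.0229). CYC1, the cytochrome c1 subunit of complex III, was at -0.14 and 0.08 and did not pass. ACAD9, a complex I assembly factor, rose by 1.51 and 1.18, SDHAF1, an assembly factor of complex II, by 1.23 and 1.05, and TTC19, which serves complex III, by 0.82 and 0.63. COX10, needed to make the heme of complex IV, fell by 0.54 in WT (adjusted p = 0.0163) and was at -0.34 in KO.

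Of 15 measured regulators of mitochondrial biogenesis and mitochondrial DNA, 6 rose and 3 fell in WT, and 4 rose and 1 fell in KO, beside the same shares of all genes. ESRRA, an orphan nuclear receptor, rose by 0.86 in WT (adjusted p = 0.000651) and 0.87 in KO. POLRMT, the mitochondrial RNA polymerase, rose by 1.27 and 0.85, and PEO1, the mitochondrial helicase, by 1.15 and 0.58. NRF1 fell by 0.51 in WT (adjusted p = 0.0257) and was at -0.45 in KO (0.0564). PPRC1, a coactivator related to PGC-1, fell by 0.60 and 0.36. TFAM, which packages mitochondrial DNA, was at 0.02 and -0.04 and did not pass. SCO2, PPARGC1A and PPARGC1B were not analysed here, nor were the isoforms NDUFA4L2, COX4I2, COX6A2, COX7A1, COX8B and COX8C.

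The promoter letters divided the genes loosely, as a description with no test. The 11 genes with an NRF1 core had a median response of 0.35 in WT, with 6 higher and 2 lower, against 0.13 for 56 genes without it, with 20 higher and 6 lower. The 2 lower genes were NDUFAF4 and ATP5G2, whose letters are printed with those of NDUFA11. The 17 genes with an ETS core had a median of 0.29, with 8 higher and 1 lower, against 0.12 for 50 without it (18 and 7). The 11 with a YY1 core had a median of -0.08, with 2 higher and 1 lower, against 0.27 for 56 without it (24 and 7). For CCAAT the medians were 0.11 for 29 genes with it and 0.25 for 38 without. For the E-box they were -0.07 for 7 genes with it and 0.21 for 60 without. Genes can hold more than 1 core. Of all genes in WT, 25.9% were higher and 21.4% lower. How genes outside this set with the same letters respond was not computed. Over 79 genes, which share the same libraries, the Spearman rho with the log2 difference was -0.06 in WT and -0.13 in KO for gene span, -0.22 and -0.27 for mRNA length and -0.20 in both for the number of exons. For gene span over 8894 of all genes it was -0.11 and -0.16.

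Several of these genes start head to head with a neighbour, within 1000 bases, and 24 such pairs had both genes measured. In WT both passed in the same direction in 5 pairs and in opposite directions in 2, and in the rest at least 1 gene did not pass. Of all genes, 25.9% were higher and 21.4% lower. How often such pairs among all genes change together was not computed. NDUFA11 rose beside VMAC (0.90), and NDUFS1 beside EEF1B2, a translation elongation factor gene (0.71). ATP5C1 fell by 0.68 while KIN rose by 0.77, and NDUFA4 rose while PHF14 fell by 0.47. COX4I1, which rose 2.06-fold, starts next to COX4NB, a gene of the endoplasmic reticulum membrane complex included by name only, which was at -0.32 (adjusted p = 0.153, and 0.0119 with the block). Exons of 20 of the 80 genes overlap a gene on the opposite strand, and exons of 4 (COX4NB, NDUFB2, NDUFB8 and NDUFB9) overlap one on the same strand, so those 4 values may be shared between genes.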

How the data were processed

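The authors deposited CPM values per gene in 2 tables, 1 per treatment, each with both genotypes and 6 libraries. The build NCBIM37 and the tools HTSeq, edgeR and TopHat2 2.0.6 are listed in the submitters' processing notes, with no role for each; per the labels' protocols the libraries came from a stranded mRNA kit. Each value was a whole multiple of 1 read over a single library total (100% whole within 0.001 of a read), so both tables share a scale. Differences were computed with limma 3.58.1 in R 4.3.3 (lmFit, eBayes with trend) on log2(CPM + 1), which understates changes of low genes, with Benjamini-Hochberg adjustment over all genes at 0.05 and tests two-sided. KO was compared with WT within a table (6 libraries), and doxorubicin with mock, and the interaction, over 12 libraries and the 10292 shared genes. The fit was also run on simulated data, in which fewer genes changed than after doxorubicin, and by more than most genes here. That run does not show how the fit handles changes as small and as many as these.

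Same-numbered libraries deviated together from their group means across genes (r = 0.712 to 0.856 between genotypes in mock, 0.668 to 0.781 after doxorubicin, 0.394 to 0.728 between treatments), so the numbers, shared in the labels, were taken to pair libraries. A second fit took that number as a block (the replicate block), and its value is printed where it changes a call. P-values measure the spread between these libraries. Named genes were the 8 largest calls each way per comparison (from the blocked fit where fewer than 3 passed), core subunits, paired isoforms, the extremes of each complex, and CYCS, CYC1, TFAM, NRF1 and ESRRA; other genes were named after their values were seen. Among the totals is 1 gene that is not reported here by name. The genes and lists were chosen with earlier results of these data known. Names matched RefSeq on GRCm38.p6 for 75 genes as symbols and 5 as synonyms; mRNA lengths are from a GRCm38 annotation. X-linked genes of the family were not analysed here.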

Additional observations from a re-analysis of the deposited data

How the results depend on the processing

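Of 49 results for single genes under 539 alternatives, 482 kept their direction and side of the threshold, 47 lost the threshold, 10 gained it and 0 reversed. The 10 gains were KO against WT after doxorubicin with the replicate block. The block, which treats same-numbered libraries as pairs, gave 9 genes higher and 2 lower there, beside 11.8% and 13.6% of all genes. For doxorubicin against mock it gave 16 lower in WT and 8 lower in KO, beside 30.1% and 24% of all genes. The block made no call among these genes in KO against WT in mock or for the interaction. Quantile normalization and median centring each gave 16 lower in WT, beside 26.9% and 28.6% of all genes. Each gave 6 lower in KO, beside 18% and 19.7%. The rises under these settings are given in the results on treatment. A pseudocount of 0.1 or a mean of at least 5 CPM changed no call among these 49.

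Leaving out 1 library gave 22 to 27 higher and 5 to 11 lower in WT and 21 to 26 and 0 to 2 in KO, with medians of 0.115 to 0.194 and 0.180 to 0.280. For KO against WT the count stayed at 0 in both treatments, with medians of 0.0346 to 0.0909 in mock and 0.0737 to 0.184 after doxorubicin, and the interaction had 0 calls and medians of 0.0178 to 0.131. Leaving out 1 pair from the blocked fits, an alternative chosen after seeing the data, gave 27 to 30 higher and 9 to 14 lower in WT and 26 to 32 and 2 to 4 in KO. Shares of all genes are not given here for fits without 1 library, nor for the response to doxorubicin without 1 pair. Those counts show how far the calls moved, and not whether they stand apart from all genes. For KO against WT, leaving out 1 pair gave 0 to 10 higher and 0 lower in mock, and 1 to 9 higher and 0 to 2 lower after doxorubicin. The cause was not tested. The planned tests on reads recovered from the CPM were not run.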

Other observations

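Other gene groups of energy metabolism and redox defence gave mixed pictures after doxorubicin, beside 25.9% of all genes higher and 21.4% lower in WT and 19.9% and 14.6% in KO. Of 10 genes of reactive oxygen defence, 6 rose and 0 fell in each genotype. SOD1, the cytosolic superoxide dismutase, rose by 1.03 in WT (adjusted p = 4.79e-05) and 0.73 in KO, GPX1, a glutathione peroxidase, by 0.83 and 0.94, and PRDX5, a peroxiredoxin, by 0.70 and 0.61, while SOD2, the mitochondrial form, was at -0.02 and -0.03 and did not pass. Of 20 glycolysis genes 5 rose and 1 fell in WT and 4 rose in KO. LDHB, a lactate dehydrogenase subunit, rose 14.1-fold in WT (adjusted p = 1.54e-05) and 8.41-fold in KO, and PFKM, a phosphofructokinase, fell by 1.06 in WT and was at -0.53 in KO (adjusted p = 0.0831).

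Of 16 genes of the citric acid cycle and pyruvate dehydrogenase, 4 rose and 3 fell in WT and 4 rose and 1 fell in KO. PDHB, a pyruvate dehydrogenase subunit, rose by 1.44 and 0.89 and FH1, fumarate hydratase, by 1.24 and 0.71, while IDH2, the mitochondrial isocitrate dehydrogenase, fell by 1.54 and 1.62. Of 21 genes of mitochondrial import, carriers and membrane, 1 rose and 7 fell in WT and 1 rose and 4 fell in KO. SLC25A3, the phosphate carrier, rose by 0.82 and 0.70, and HSPA9, the matrix chaperone, fell by 0.71 and 0.79. Mitochondrial ribosomal protein genes gave 17 higher and 6 lower of 75 in WT, and cytosolic ones 2 higher and 30 lower of 76.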
